A study of Mus musculus with 18 samples.

Results

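Brush cells, the chemosensory cells of the airway epithelium that are called tuft cells in the gut, were set against the CD45+ hematopoietic cells of the same tissue, the mouse trachea. The comparison takes the 7 brush libraries and the 4 CD45+ libraries of a bulk RNA-seq series of 18 libraries, chosen by their labels, and describes all genes with stress on what the 2 populations share. Tracheal cells of naïve mice had been released with a high dose of dispase followed by papain, gated on propidium iodide to remove dead cells, and sorted into TCL lysis buffer. Brush cells were taken as CD45-, EpCAM+ and eGFP+, and CD45+ cells were sorted separately with the same antibodies. All 11 libraries came from B6 congenic mice with the transgene Tg(RP23-268L19-EGFP)2Mik, a bacterial artificial chromosome that places eGFP under the choline acetyltransferase (Chat) locus, so the CD45+ cells carried the transgene too. The sort used Ptprc (which encodes CD45), Epcam and, through eGFP, Chat, so differences in these 3 genes are checks of the gate and not findings. The CD45+ gate is a mixture of leukocyte classes, and the labels give neither ages nor whether the libraries of a group came from separate animals. The p-values therefore measure only the spread between these libraries, which may be technical. In bulk libraries fewer cells of a type and less RNA per cell cannot be told apart.

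Brush cells are epithelial cells that detect bitter compounds, succinate and other signals through taste-type G protein cascades ending in the cation channel TRPM5. They are also known for making cysteinyl leukotrienes and IL-25, mediators otherwise made mainly by leukocytes or acting on them. Leukocytes signal through receptor-coupled Src and Syk family kinases, adaptors and phosphoinositide 3-kinases, and move with a set of actin regulators that most epithelial cells lack.

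The labels held against the markers. Trpm5 (chr7:143071529-143094642 on GRCm38.p6, the build of all coordinates here), the taste transduction channel, lay between 1484 and 2892 CPM (counts scaled to library size, the scale of all levels here unless TPM is named) in the 7 brush libraries, with a median of 2414, and at 0, 0.754, 1.10 and 0.767 CPM in CD45+ replicates 1 to 4. Ptprc (chr1:138062859-138175756) lay between 10.2 and 31.3 CPM in brush cells, with a median of 21.4, and at 1523, 867, 863 and 639 CPM in CD45+ cells. Alox5 (chr6:116410071-116461178), the 5-lipoxygenase of leukotriene synthesis, lay between 414 and 965 CPM in brush cells, with a median of 815, and at 8.80, 114, 49.7 and 161 CPM in CD45+ cells. None of the 3 markers overlapped between the groups.

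Library totals ran from 838328 to 6031711 counts in brush cells and from 371652 to 7438791 in CD45+ cells, and ribosomal RNA genes took 24% to 63.49% and 20.72% to 43.38% of them. The 2 shallowest libraries stood apart from their groups. The median Spearman correlation with the other libraries of the group was 0.826 for brush replicate 4 and 0.735 for CD45+ replicate 1, against 0.910 to 0.946 and 0.913 to 0.925 for the others. Named genes whose call turned on either library, or that moved by over 1.5-fold without it, are given both ways, here or in the closing sections.

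Proximal promoter sequences of 5 genes are shown as a description, and no expression result below rests on them. Vav1, Inpp5d and Ptgs1 are leukocyte-associated genes that brush cells expressed at or above the CD45+ level, and Sucnr1 and Itpr3 belong to the chemosensory side. Each is the 180 bases before a RefSeq transcript start on the plus strand, 5′ to 3′. For Vav1, Inpp5d and Sucnr1 that is the first base of the annotated gene, while the starts used for Ptgs1 and Itpr3 lie 13684 and 302 bases inside it. Capitals mark GAGGAAGT, a core bound by ETS family factors such as PU.1 and SpiB, or the octamer ATGCAAAT, bound by POU factors such as POU2F3, which in Itpr3 lies on the reverse strand and reads ATTTGCAT.
Vav1 (chr17:57278920-57279099): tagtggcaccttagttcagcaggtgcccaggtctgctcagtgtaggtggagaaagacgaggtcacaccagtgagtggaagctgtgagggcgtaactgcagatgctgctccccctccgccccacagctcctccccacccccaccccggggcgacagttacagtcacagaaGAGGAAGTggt
Inpp5d (chr1:87620132-87620311): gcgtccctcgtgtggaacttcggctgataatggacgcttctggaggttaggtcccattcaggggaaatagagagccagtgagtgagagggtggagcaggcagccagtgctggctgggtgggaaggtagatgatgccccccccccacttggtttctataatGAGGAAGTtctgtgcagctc
Ptgs1 (chr2:36230246-36230425): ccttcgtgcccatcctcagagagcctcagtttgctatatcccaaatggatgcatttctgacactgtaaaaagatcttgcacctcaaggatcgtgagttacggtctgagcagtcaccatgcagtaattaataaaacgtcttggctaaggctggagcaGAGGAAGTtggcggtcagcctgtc
Sucnr1 (chr3:60081689-60081868): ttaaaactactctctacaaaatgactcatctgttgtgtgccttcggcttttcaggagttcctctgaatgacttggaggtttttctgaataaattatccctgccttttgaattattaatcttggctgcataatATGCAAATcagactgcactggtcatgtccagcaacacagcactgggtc
Itpr3 (chr17:27057124-27057303): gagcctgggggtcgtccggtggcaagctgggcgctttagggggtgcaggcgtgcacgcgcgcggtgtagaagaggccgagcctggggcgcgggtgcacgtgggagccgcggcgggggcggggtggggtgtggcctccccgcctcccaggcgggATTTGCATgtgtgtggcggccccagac

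The 5 genes were chosen after their values were seen, from those whose window holds a match. Over the RefSeq promoter windows of 27025 genes (250 bases before to 50 after the start, both strands, chromosome 18 not used), GAGGAAGT occurred in 997 genes, or 3.69%. It occurred in 7.48% of the 2167 genes that were lower in brush cells, in 3.04% of the 2239 that were higher and in 3.63% of the 1183 at a like level. The gene lists ranged widely, from 8 of 35 leukocyte cytoskeleton genes, 6 of 28 pan-leukocyte surface genes and 7 of 53 immune receptor signalling genes to 0 of 43 hematopoietic transcription factors, 0 of 20 MHC class I genes and 0 of 9 B and plasma cell genes. The octamer occurred in 532 genes, or 1.97%, and in 2.59% of the higher, 1.52% of the lower and 1.27% of the like-level genes. It occurred in 5 of 24 taste cascade genes, 3 of 25 cytokines and 1 of 13 tuft cell transcription factors, and in 0 of 43 hematopoietic ones. These shares are descriptions of letters in a window, without a test, and the 2 motifs share no sequence.

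The 2 populations differed in 48.2% of the genes tested, in about equal numbers each way. Of 26327 genes in the count table, 12275 passed the filter on low counts, and at an adjusted p below 0.05 (edgeR's quasi-likelihood test with Benjamini-Hochberg adjustment) 3027, or 24.7%, were higher in brush cells and 2885, or 23.5%, were lower. At 1 log2 unit or more, 2853 (23.2%) were higher and 2634 (21.5%) were lower. A gene was said to be at a like level when the 95% interval of its log2 fold change lay within -1 and 1 and its mean was at least 10 CPM in both groups, and 1460 genes, or 11.9%, met this. The CPM ranges of the groups did not overlap for 4027 genes, or 32.8%. Without brush replicate 4 and CD45+ replicate 1, 3421 genes were higher, 3585 were lower and 2292 were at a like level.

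The filter also kept genes that were high enough in only 1 of the groups. Of the genes tested, 8634 would have passed on either group alone, and of these 1379 were higher, 1726 were lower and 5529 were not called. A further 2191 passed through the brush libraries only and 1265 through the CD45+ libraries only.

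**Figure D1:**
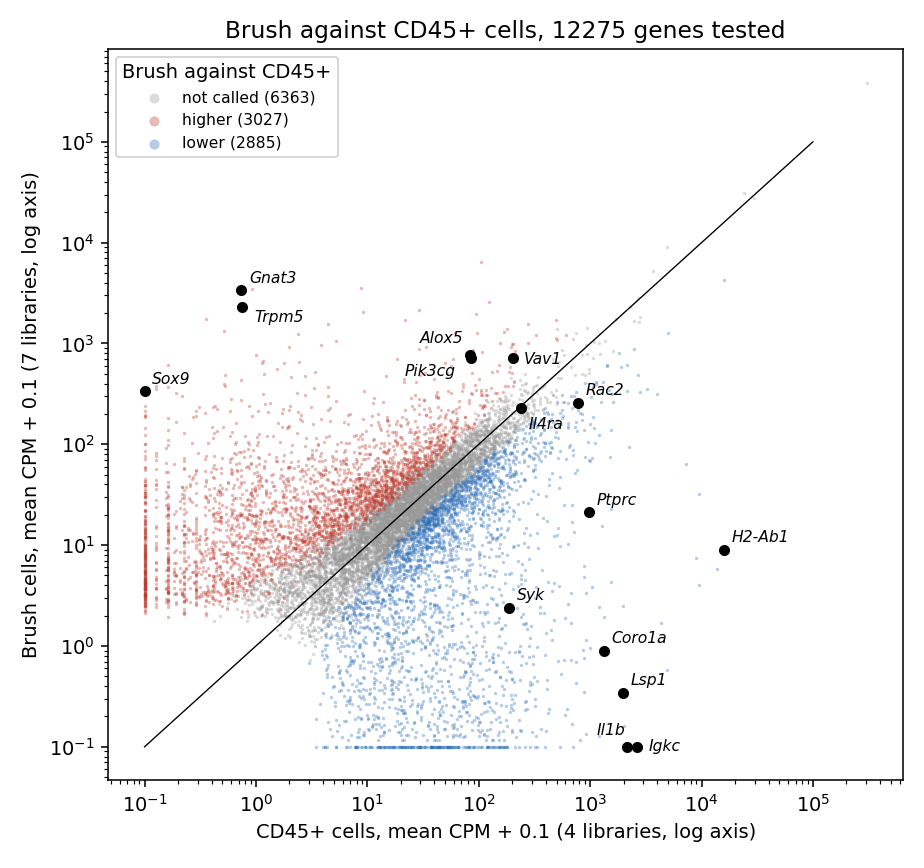
Mean CPM + 0.1 of each gene tested in 4 CD45+ libraries (x, log axis) and 7 brush libraries (y, log axis), colored by call at an adjusted p below 0.05, with the line of equal level. Sox9 and Trpm5 lie at the brush edge, Igkc and Il1b at the CD45+ edge, Il4ra on the line, and Pik3cg, Vav1 and Alox5 above it at levels over 50 CPM in both.

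The 12 genes per direction that differed most, among those with at least 50 CPM in the higher group and no overlap, had few or no counts in the other group. On the brush side, Sox9, an epithelial transcription factor, lay between 255 and 407 CPM with 0 counts in all CD45+ libraries, at least 1938-fold higher when 3 counts over the CD45+ group are taken as the floor. With the same floor Ovol3 was at least 1377-fold higher, Il25, the alarmin cytokine of tuft cells, at least 1239.8-fold (112 to 447 CPM), Ms4a15 at least 1128-fold, Pou2f3, the tuft cell master regulator, at least 1114-fold (135 to 231 CPM) and Sucnr1, the succinate receptor, at least 1083-fold (133 to 270.2 CPM). A further pair had no CD45+ count, 4930539E08Rik (at least 835-fold) and Ly6g6f (at least 721-fold). Sh2d7, Tas2r108 and Eppk1 had 1 CD45+ count each, and the taste G protein gene Gnat3 had 10 against 82329 in brush cells.

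On the CD45+ side, Igkc, the kappa light chain constant region, lay between 2072 and 3200.3 CPM with 0 counts in the brush libraries, at least 25917-fold lower there. With 0 brush counts, Il1b, the inflammatory cytokine, was at least 21280-fold lower, Cd209a, a dendritic cell lectin, at least 6922-fold, Cybb, the phagocyte oxidase subunit, at least 5273-fold, Cd79a of the B cell receptor at least 3330-fold, and Ms4a1, which encodes CD20, at least 3188-fold. Ighg2b, an immunoglobulin heavy chain, was at least 3881-fold lower, but 1459 of its CPM were in CD45+ replicate 3 and the other 3 libraries lay between 14.8 and 55.0. The macrophage genes Retnla and Ccl6 had 2 and 1 brush counts against 20435 and 18734, and Ccl4, Ighm and the leukocyte surface gene Cd52 had 1, 11 and 2 against 4782, 97501 and 6762. Immunoglobulin, MHC and ribosomal protein genes have near-identical copies, so their counts are uncertain between copies.

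Lists of leukocyte and eicosanoid genes were mostly lower in brush cells, with a minority that was higher. Over all these lists 398 of 466 genes were tested, and 308 (77.4%) were lower, 41 (10.3%) higher, 49 not called and 12 (3.02%) at a like level, with a median log2 fold change of -5.54 against 0.032 over all genes tested. The share of lower genes was above the 23.5% of all genes, and those of higher and like-level genes were below the 24.7% and 11.9%. Lists of brush and epithelial genes went the other way, with 102 of 128 tested higher (79.7%), 9 lower (7.03%) and a median of 4.06. Many genes of both sets of lists passed the filter through 1 group only, as given for single lists below. Without brush replicate 4 and CD45+ replicate 1, the leukocyte and eicosanoid counts were 332 lower, 43 higher and 16 at a like level.

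**Figure D2:**
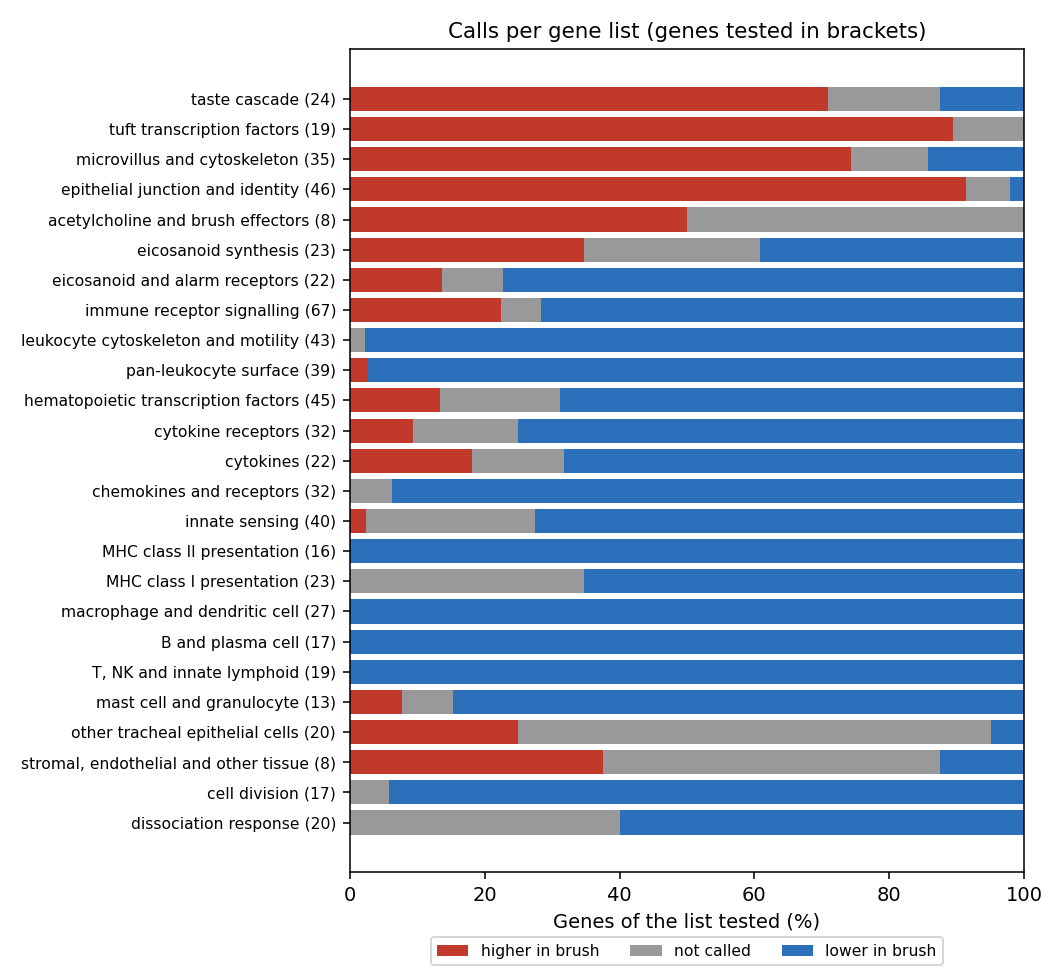
Percent of the tested genes of each list (number in brackets) that were higher in brush cells, not called or lower. Immune receptor signalling, eicosanoid synthesis, cytokines and hematopoietic transcription factors hold both colors, while the leukocyte cytoskeleton, MHC class II and single-class marker lists are almost wholly lower.

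Immune receptor signalling genes lay on both sides. Of 69 listed, 67 were tested, and 15 (22.4%, against 24.7% of all genes tested) were higher, 48 (71.6%, against 23.5%) lower and 4 not called (median -5.64). Among the 26 that would have passed the filter on either group alone, 10 were higher and 12 lower. Vav1 (chr17:57279100-57329236), the exchange factor of hematopoietic cells whose promoter is printed above, lay between 216 and 936 CPM in brush cells, with a median of 820.1, and at 85.1, 238, 222 and 258 CPM in CD45+ cells. One brush library, replicate 4, lay within the CD45+ range, and the log2 fold change was 1.83 ± 0.40 (SE, edgeR adjusted p = 0.00211). Fyb, an adaptor of T cells and platelets, lay between 416 and 1113 CPM against 241, 149, 182 and 195 (1.60 ± 0.33, edgeR adjusted p = 0.00122). Both are textbook leukocyte signalling genes, and both passed the test as higher in brush cells.

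The gamma class of phosphoinositide 3-kinase, which couples G protein receptors to lipid signalling, was among the higher genes. Its catalytic subunit gene Pik3cg (chr12:32173397-32208677) lay between 447 and 962 CPM in brush cells and at 61.6, 104, 67.0 and 109.6 CPM in CD45+ cells (3.06 ± 0.32, edgeR adjusted p = 2.31e-06). Its regulatory subunit gene Pik3r5 lay between 598 and 1181 CPM against 76.3, 108, 51.7 and 117 (3.30 ± 0.32, edgeR adjusted p = 1.25e-06). Neither overlapped between the groups. The delta class went the other way: Pik3cd had 9 counts in all brush libraries and 1561 in the CD45+ libraries. On the length-corrected TPM scale, where genes can be compared, Pik3cg stood at 227.6 ± 110.4 (SD, n = 7) and Pik3cd at 0.1557 in brush cells, against 12.96 ± 5.076 (SD, n = 4) and 29.11 ± 17.76 in CD45+ cells.

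Kinases and adaptors with a brush side also included Matk, a kinase that acts on Src family kinases, at 448 to 566 CPM against 8.80, 44.7, 29.6 and 49.1 (3.86 ± 0.34, edgeR adjusted p = 5.64e-07). Bmx, a Tec family kinase, lay between 357 and 993 CPM and at 0, 1.01, 3.73 and 2.04 CPM in CD45+ cells (8.16, or 8.81 without CD45+ replicate 3). The SH2 domain gene Sh2d6 lay between 578 and 879.9 CPM against at most 1.76 in CD45+ cells. Skap2, an adaptor that binds Fyb, was higher by 1.53 ± 0.43, and Cd300lf, an inhibitory receptor of myeloid cells, lay between 173 and 339 CPM against 11.7 to 34.8 (3.49 ± 0.31, edgeR adjusted p = 4.2e-07). Bmx and Sh2d6 were thus close to absent from the leukocyte libraries, so the list's name does not describe where they were found here.

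Phosphatase genes of the list went different ways. Ptpn22, a lymphocyte tyrosine phosphatase, had 4 brush counts against 2385, and Inpp4b, a lipid phosphatase, 0 against 1104. Ptpn6, which encodes SHP-1, lay between 716 and 1399.9 CPM against 258, 711, 810.3 and 632, and the lowest brush library, replicate 4, overlapped the CD45+ range (1.00 ± 0.34, edgeR adjusted p = 0.0276). The adjusted p was 0.051 without brush replicate 1 and 0.063 without ribosomal RNA genes. Inpp5d, which encodes SHIP-1, lay between 209 and 284 CPM against 106, 183, 213 and 223 and was not called (0.42 ± 0.28, edgeR adjusted p = 0.238). DESeq2 gave it an adjusted p of 0.0447. Ptpn18 was higher by 1.95 ± 0.45, with 478 CPM in CD45+ replicate 1 and 69.6 to 115 in the other 3 libraries, and by 2.94 without that library. Plcg2, a phospholipase of immune receptors, was not called (0.54 ± 0.39) and was higher by 1.19 without CD45+ replicate 2 (edgeR adjusted p = 0.0145).

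Several receptor-proximal genes of the same pathways were at or near 0 in brush cells, while Lyn and Blnk were not. Syk, the kinase that docks on immune receptor chains, lay between 0.606 and 4.59 CPM in brush cells and at 197, 215, 153 and 186 CPM in CD45+ cells (-6.49 ± 0.43, edgeR adjusted p = 5.02e-09). The signalling chains Tyrobp and Fcer1g had 22 and 17 counts over 7 brush libraries against 9671 and 9816 over 4 CD45+ libraries. The adaptor Lcp2, the partner of Vav1 and Fyb known as SLP-76, had 6 against 2226, and the kinase Btk had 3 against 1941. Lyn, a Src family kinase of B and myeloid cells, was lower by less: it lay between 71.2 and 195 CPM against 79.2, 476, 328 and 444 (-1.13 ± 0.40, edgeR adjusted p = 0.0248). Its edgeR adjusted p was 0.0985 without CD45+ replicate 2, 0.0818 without replicate 4, 0.0516 without brush replicate 5 and 0.0562 on RSEM expected counts. By limma it was 0.0656. The B cell linker Blnk fell by 0.83 on the log2 scale, from 157 to 218 CPM in CD45+ cells to 82.8 to 122 in brush cells (edgeR adjusted p = 0.0108).

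**Figure D3:**
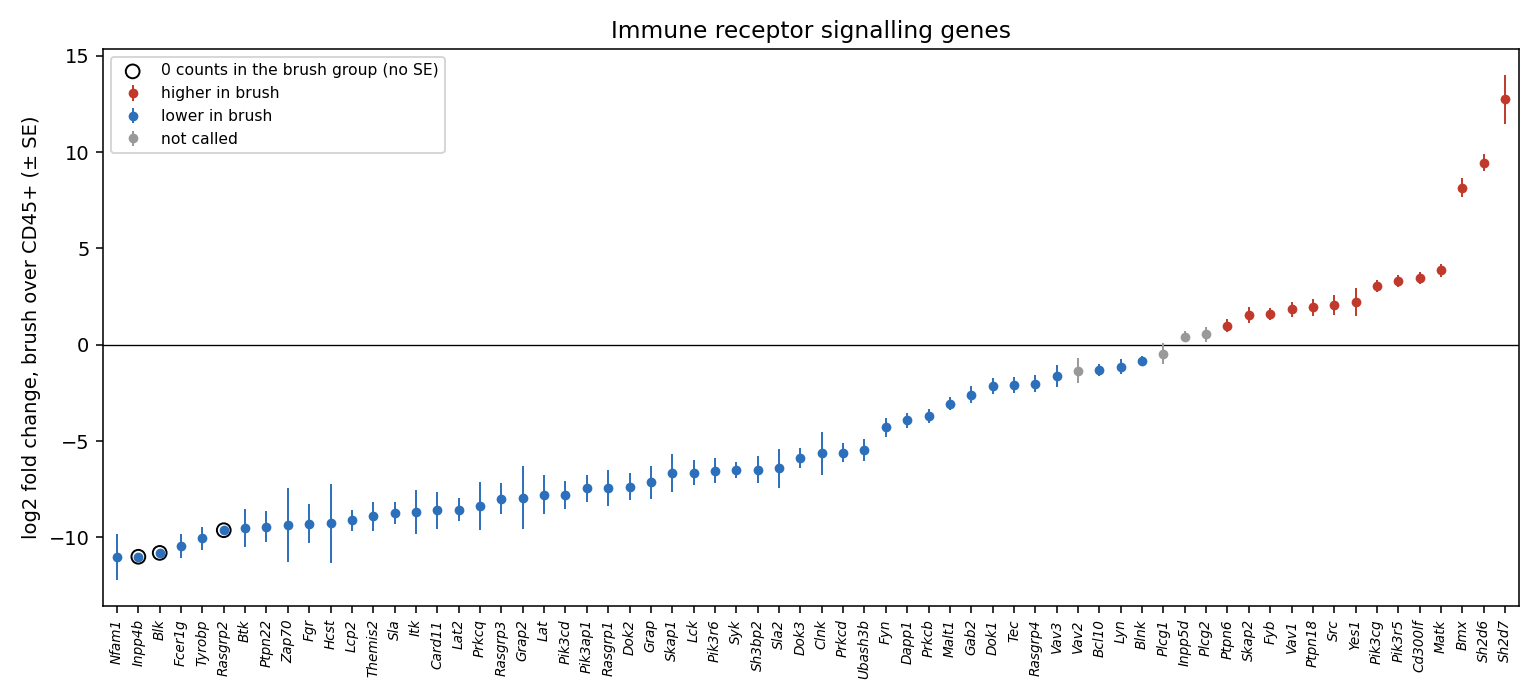
Log2 fold change, brush over CD45+ (± SE), of 66 of the 67 immune receptor signalling genes tested, in rank order; open circles mark genes with 0 brush counts, which have no SE. The red points hold Vav1, Pik3cg, Pik3r5 and Matk, and the far left holds Tyrobp, Fcer1g and Btk.

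Nearly all genes of the leukocyte actin machinery were lower in brush cells, though some were still expressed there. Of 43 genes listed, all tested, 42 (97.7%, against 23.5% of all genes tested) were lower and 1 was not called (median -7.93). Of the 14 that would have passed the filter on either group alone, 13 were lower. The count of higher genes was 0 by edgeR, DESeq2 and limma and 0 at an unadjusted p below 0.05. Coro1a, a coronin of hematopoietic cells, had 23 counts in brush cells against 27022, and Lsp1, a leukocyte actin-binding protein, had 7 against 29352. Arhgdib, a GDP dissociation inhibitor of leukocytes, lay between 0.541 and 3.85 CPM against 745, 688, 571 and 689.6. The list reached less far down for Rac2, the hematopoietic Rac GTPase, which lay between 196 and 334 CPM in brush cells and at 634, 802, 1002 and 692 CPM in CD45+ cells (-1.59 ± 0.28, edgeR adjusted p = 0.000124), and for Lcp1, which encodes L-plastin (46.2 to 208 CPM against 455 to 1516). Arhgap4, a GTPase-activating protein, was the member not called (0.32 ± 0.33, edgeR adjusted p = 0.454).

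Relatives of these genes were split. Of 6 genes of the list that were set beside a relative, all were lower, and the relative was higher in 3 pairs and lower in 3. The lower ones were Coro2a (-4.87 ± 0.69, or -5.73 without brush replicate 5), Arhgdia (-1.48 ± 0.37) and Rac1 (-1.51 ± 0.36), beside Coro1a, Arhgdib and Rac2. The higher ones included Avil and Pls1, which are given by length-corrected TPM. The filament capper Capg stood at 18.25 ± 4.795 TPM (SD, n = 7) in brush cells and 430.6 ± 141.1 (SD, n = 4) in CD45+ cells, while Avil, which encodes advillin of the same gelsolin family, stood at 659.4 ± 337.3 and 0.0825 ± 0.1179. The plastin gene Pls1 stood at 7.787 ± 5.843 TPM in brush cells, below Lcp1 at 54.24 ± 44.39 there. Outside the actin genes, the intermediate filament gene Vim stood at 1.644 ± 1.583 TPM in brush cells and 2934 ± 1820 in CD45+ cells, and the keratin gene Krt18 at 4175 ± 868 and 6.97 ± 7.422.

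Of the pan-leukocyte surface list 39 of 40 were tested and 38 (97.4%, against 23.5% of all genes tested) were lower. The median was -9.12, or -8.77 with genes at 0 set to their bound. Of the 39, 32 passed the filter through the CD45+ libraries only. The other 7 would have passed on either group alone, and 6 of them were lower and 1 higher. Cd53, a tetraspanin, had 18 brush counts against 14267, and Cd52 had 2 against 6762. The exception was Itgb7, an integrin beta chain of gut-homing lymphocytes, at 179 to 528 CPM against 211, 206, 119 and 131 with overlap (0.99 ± 0.35, edgeR adjusted p = 0.0312). Its adjusted p was above 0.05 when brush replicate 3 (0.125), 5 (0.0571), 6 (0.0525) or 7 (0.0508), CD45+ replicate 3 (0.0966) or 4 (0.0855), or the ribosomal RNA genes (0.0642) were left out. Emb, which encodes the adhesion protein embigin, was lower by a smaller step than the rest, at 73.2 to 126 CPM against 355, 345, 472 and 403 (-1.94 ± 0.27).

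Hematopoietic transcription factors were mostly lower, with 6 of 45 tested higher (13.3%, against 24.7% of all genes tested), 31 lower (68.9%, against 23.5%) and 8 not called. Among the 21 that would have passed on either group alone these counts were 5, 8 and 8. Spib, an ETS factor of B cells, dendritic cells and tuft cells, lay between 297 and 411 CPM in brush cells and at 73.4, 78.7, 109.9 and 18.7 CPM in CD45+ cells, with no overlap (2.25 ± 0.37, edgeR adjusted p = 0.000187). Its relative Spi1, which encodes PU.1, had 6 brush counts against 1838. By TPM brush cells held 166.5 ± 69.25 of Spib and 0.4043 ± 0.5893 of Spi1, and CD45+ cells 22.4 ± 16.43 and 77.23 ± 36.42. The order of the 2 ETS genes was thus opposite in the 2 populations. Gfi1b, a repressor of the erythroid and megakaryocyte lineages and of tuft cells, lay between 6.76 and 20.1 CPM against at most 1.53 (3.58 ± 0.51, edgeR adjusted p = 2.81e-05).

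Runx1, a core-binding factor of blood development, lay between 109 and 173 CPM against 61.6, 82.4, 59.7 and 92.3, with no overlap and a small difference (0.92 ± 0.26, edgeR adjusted p = 0.00904). Etv6 was higher by 0.95 ± 0.27 (edgeR adjusted p = 0.0092). Myb was higher by 2.49 ± 0.49, and by 3.88 without CD45+ replicate 3, where it was highest among CD45+ libraries (13.5 CPM). Nfatc1, the calcium-responsive factor of lymphocytes, was at a like level, at 98.7 to 162 CPM against 173, 81.2, 117 and 67.5 (0.22 ± 0.29). Lower genes included Irf8 of dendritic cells and B cells (13.4 to 20.5 CPM against 167 to 330.1) and Ikzf1, the lymphoid factor Ikaros, with 6 brush counts against 1278.

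Of 32 cytokine receptors tested 24 (75%, against 23.5% of all genes tested) were lower, as were 10 of the 18 that would have passed on either group alone. The 3 higher ones (9.38%, against 24.7%) bind IL-25, IL-13 or stem cell factor. Il17rb, the IL-25 receptor chain, lay between 115 and 174 CPM in brush cells and at 11.7, 2.51, 20.1 and 3.83 CPM in CD45+ cells (3.84 ± 0.45, edgeR adjusted p = 8.79e-06, and 5.01 without CD45+ replicate 3). Il13ra1, a chain of the IL-4 and IL-13 receptor, lay between 200.2 and 529.8 CPM against 5.87, 121, 62.5 and 100.2 (2.30 ± 0.47, edgeR adjusted p = 0.00135). Kit, the stem cell factor receptor of mast cells and progenitors, lay between 104 and 195 CPM against 17.6, 21.4, 51.7 and 38.8 (2.16 ± 0.33, edgeR adjusted p = 7.43e-05). None of the 3 overlapped between the groups.

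Il4ra, the chain that pairs with Il13ra1 for IL-4 and IL-13, was at a like level: 163 to 282 CPM in brush cells against 176, 276, 262 and 239 (-0.06 ± 0.28, with a 95% interval from -0.66 to 0.53). The common gamma chain gene Il2rg, with which Il4ra pairs in lymphocytes, had 3 brush counts against 6292. Il7r had 0 brush counts against 2227, at least 1679.6-fold lower, with 369.7 CPM in CD45+ replicate 1 and 55.8 to 170.5 in the others. Il17ra, the chain that pairs with Il17rb, lay between 11.5 and 22.6 CPM in brush cells and between 60.1 and 134 in CD45+ cells (-2.71 ± 0.30, edgeR adjusted p = 8.09e-07).

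**Figure D4:**
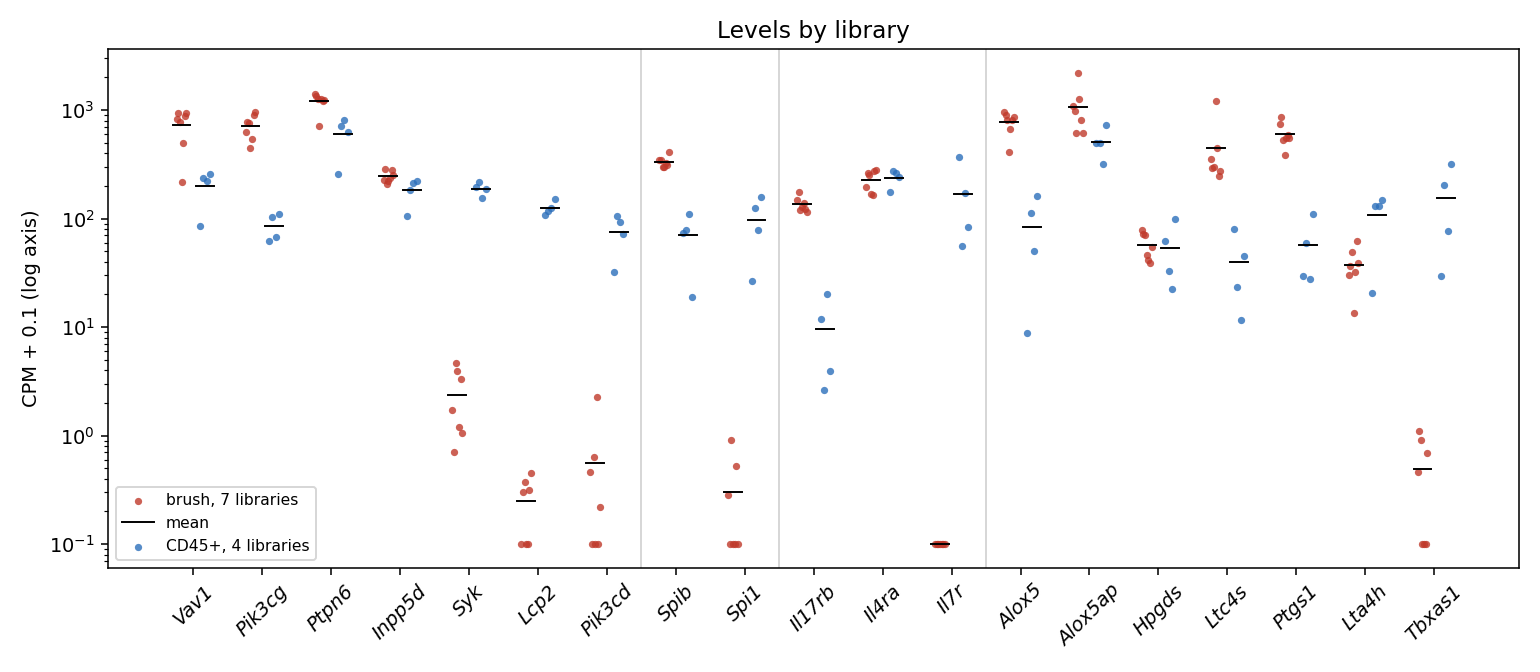
CPM + 0.1 (log axis) of 19 genes in each of the 7 brush (red) and 4 CD45+ (blue) libraries, with the mean of each group as a bar and libraries with 0 counts drawn at 0.1. Pik3cg, Spib, Il17rb, Alox5, Ltc4s and Ptgs1 separate with brush cells above, Il4ra, Inpp5d and Hpgds overlap, and Syk, Lcp2, Pik3cd, Spi1, Il7r and Tbxas1 separate with brush cells at or near 0.

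Among cytokines 4 of 22 tested were higher (18.2%, against 24.7% of all genes tested) and 15 lower (68.2%, against 23.5%). Of the 7 that would have passed on either group alone, 2 were higher and 3 lower. Besides Il25 the higher ones were Il34, a ligand of the CSF1 receptor, at 2.98 to 17.7 CPM with 0 CD45+ counts (at least 49.2-fold), Tgfb3 (1.66 ± 0.33) and Tnfsf13 (1.37 ± 0.39, edgeR adjusted p = 0.00952). The adjusted p of Tnfsf13 was 0.0963 on RSEM expected counts. Il18, an inflammasome-processed cytokine, was at a like level at 22.6 to 48.1 CPM against 5.87, 36.9, 17.7 and 34.2 (0.22 ± 0.36). Of 32 chemokines and chemokine receptors tested 30 (93.8%, against 23.5% of all genes tested) were lower, but 27 of the 32 passed the filter through the CD45+ libraries only. Of the 4 that would have passed on either group alone 3 were lower. The 2 of the 32 that were not called were Cxcl12, which was higher by 1.34 without CD45+ replicate 4 (edgeR adjusted p = 0.0404), and Cx3cl1, which was higher by 1.68 without CD45+ replicate 3 (edgeR adjusted p = 0.0286).

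Enzymes of eicosanoid synthesis had the median nearest to 0 among the leukocyte and eicosanoid lists, at 0.198. Of 23 tested, 8 were higher (34.8%, against 24.7% of all genes tested), 9 lower (39.1%, against 23.5%) and 6 not called. Of the 14 that would have passed on either group alone, 7 were higher and 4 lower. Alox5 was higher in brush cells by 3.18 ± 0.48 (edgeR adjusted p = 0.00013). Its partner Alox5ap, which presents arachidonic acid to the enzyme, lay between 609 and 2193 CPM against 493, 494, 321 and 723 with overlap (1.08 ± 0.39, edgeR adjusted p = 0.0352). This call was lost without brush replicate 1 (adjusted p 0.0539), 4 (0.0557) or 5 (0.0596), without CD45+ replicate 2 (0.074) or 3 (0.107), without ribosomal RNA genes (0.0685) and with all 18 libraries in the fit (0.248). Ltc4s, which makes leukotriene C4, lay between 246 and 1201 CPM against 79.2, 23.4, 11.6 and 45.2 (3.58 ± 0.52, edgeR adjusted p = 0.000125). Lta4h, which makes leukotriene B4 from the same intermediate, went the other way at 13.5 to 61.9 CPM against 20.5, 132, 132 and 148 (-1.54 ± 0.42, edgeR adjusted p = 0.00441), with CD45+ replicate 1 inside the brush range.

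The release of arachidonic acid and the first step of prostaglandin synthesis were on the brush side. Pla2g4a, the cytosolic phospholipase A2 that frees arachidonic acid, lay between 66.3 and 131 CPM against 0, 29.2, 10.2 and 29.4 (2.20 ± 0.44, edgeR adjusted p = 0.000818). Ptgs1, which encodes cyclooxygenase-1 and of which a promoter is printed above, lay between 381 and 863 CPM against 29.3, 59.3, 27.8 and 109 (3.38 ± 0.38, edgeR adjusted p = 7.44e-06). Ptgs2, the inducible cyclooxygenase gene, was lower at 0 to 11.8 CPM against 2.93, 51.0, 14.7 and 24.0 (-2.70 ± 0.74), and by -2.04 without CD45+ replicate 2 and -3.53 without brush replicate 7. The 2 cyclooxygenase genes thus lay on opposite sides.

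The terminal enzymes differed in direction. Hpgds, the hematopoietic prostaglandin D synthase, was at a like level at 38.9 to 78.7 CPM against 61.6, 32.7, 22.2 and 98.9 (0.12 ± 0.38). Ptges3 and Lpcat3 were also at a like level (0.20 ± 0.37 and 0.17 ± 0.32). Tbxas1, the thromboxane synthase of macrophages and platelets, had 15 brush counts against 2746, and Alox15 had 13, most of them in replicate 2 (2.43 CPM), against 1835 in CD45+ replicates 2 to 4.

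Receptors for these lipids and for related danger signals were mostly lower. Of 22 tested, 17 (77.3%, against 23.5% of all genes tested) were lower, 2 were not called and 3 (13.6%, against 24.7%) were higher. Of the 22, 13 passed the filter through the CD45+ libraries only. Among the 6 that would have passed on either group alone, 4 were lower and 2 not called. Cysltr1, a cysteinyl leukotriene receptor, had 2 brush counts against 983, Ltb4r1, the leukotriene B4 receptor, 2 against 1979, and the prostaglandin E2 receptor gene Ptger4 6 against 1881. The higher ones were Sucnr1, P2ry2, a nucleotide receptor (17.3 to 44.4 CPM against 0, 2.76, 2.96 and 4.86, 3.09 ± 0.41), and Adora1, an adenosine receptor (23.1 to 41.3 CPM against 0, 1.51, 0 and 1.79). Those not called were Ptger1, a prostaglandin E2 receptor (6.01 to 17.3 CPM against 14.7, 14.6, 22.1 and 14.6, -0.61 ± 0.34), and P2rx1, an ATP-gated channel (0 to 10.9 CPM against 0, 3.77, 2.63 and 10.7, 0.03 ± 0.80).

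Antigen presentation was lower for every class II gene tested and for part of the class I genes. All 16 class II genes tested of 17 were lower (100%, against 23.5% of all genes tested, median -9.41). Of the 16, 15 passed the filter through the CD45+ libraries only. H2-Ab1 lay at 7767, 20649, 11557 and 23167 CPM in CD45+ cells and in brush cells at a median of 0.546 CPM with a highest value of 44.2 in replicate 7 (-10.63, or -12.05 without that library). Of 23 class I genes 15 (65.2%, against 23.5% of all genes tested) were lower and 8 were not called. B2m, the class I light chain, lay between 211 and 770.2 CPM against 5725, 2134, 2102 and 2923 (-3.19 ± 0.43, edgeR adjusted p = 8.13e-06), and the immunoproteasome subunit gene Psmb8 between 23.8 and 90.5 against 401 to 866.

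The class I heavy chains depended on 1 library. H2-K1 lay between 1252 and 2457 CPM against 1156, 2788, 2911 and 3063, and H2-D1 between 1329 and 2166 against 701, 3801, 2379 and 4211. Neither was called with all libraries (-0.57 and -0.76, edgeR adjusted p = 0.192 and 0.134), and both were lower without CD45+ replicate 1 (-0.80 and -1.08, edgeR adjusted p = 0.0233 and 0.0043). The peptide-loading genes Tapbp (-0.00 ± 0.35), Tapbpl (-0.07 ± 0.27) and Calr (-0.33 ± 0.31) were at a like level, with Tapbp at 241 to 504 CPM against 126, 415, 487 and 448.

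Innate sensing genes were mostly lower, with cytosolic RNA sensors at a like level. Of 40 tested, 29 (72.5%, against 23.5% of all genes tested) were lower and 10 not called. The 1 higher gene (2.5%, against 24.7%) became 2 without CD45+ replicate 1. Of the 40, 21 passed the filter through the CD45+ libraries only. Among the 18 that would have passed on either group alone, 8 were lower, 1 higher and 9 not called. Tlr2, a receptor for bacterial lipoproteins, lay between 0 and 6.70 CPM in brush cells, with the highest value in replicate 1, against 38.1, 375, 162 and 422 (-7.08, or -8.26 without brush replicate 1). The RNA sensors Ddx58 and Ifih1, which encode RIG-I and MDA5, and their adaptor Mavs were at a like level, with 17.3 to 48.9 CPM of Mavs in brush cells against 17.6, 50.8, 33.4 and 40.4 (-0.03 ± 0.32). Ddx58 and Ifih1 gave -0.35 ± 0.31 and -0.28 ± 0.29. Tirap, a Toll adaptor, was the higher one (1.33 ± 0.44, edgeR adjusted p = 0.02), and its adjusted p was 0.054 without CD45+ replicate 2.

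Most genes of single leukocyte classes were at or near 0 in the brush libraries. Of 76 tested markers of macrophages and dendritic cells, B and plasma cells, T, NK and innate lymphoid cells, and mast cells and granulocytes, 74 were lower (97.4%, against 23.5% of all genes tested). The median of the 76 was -9.45, or -8.86 with genes at 0 set to their bound, and 27 of them had 0 brush counts. Most passed the filter through the CD45+ libraries only: 19 of 27, 16 of 17, 19 of 19 and 11 of 13 in the order of these classes. All 8 macrophage and dendritic cell genes that would have passed on either group alone were lower. The 1 higher gene was Kit, joined by Ltf without brush replicate 4 (edgeR adjusted p = 0.0484). The summed macrophage and dendritic cell list lay between 119.5 and 199.3 CPM in brush libraries and between 12110 and 48850 in CD45+ libraries, the B cell list between 18.11 and 59.69 against 5173 to 14860, and the T and NK cell list between 1.448 and 7.645 against 482 to 2479. The summed mast cell and granulocyte list was closer, between 127.1 and 369.2 CPM against 663.4 to 1320, and in brush cells it was made up mostly of Kit and of Ltf, which encodes lactoferrin and was not called (23.1 to 204.8 CPM against 0, 20.4, 25.1 and 39.1, 1.66 ± 0.69). The macrophage gene C1qa stood in brush cells at 0.195% of its CD45+ mean and Lyz2, the macrophage lysozyme, at 0.333%. Cd79a, Ms4a1, Cd3g, Cma1 of mast cells and S100a8 of neutrophils had 0 brush counts. Vav1, Fyb, Pik3cg, Spib and Ptgs1 stood above 100% in the same libraries.

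Cd79b, the other chain of the B cell receptor, was an exception to its class at 16.5 to 55.8 CPM in every brush library against 516, 314, 373 and 153 (-3.44 ± 0.37, edgeR adjusted p = 8.7e-07), or 9.41% of the CD45+ mean, while its partner Cd79a had 0 brush counts. It was singled out after its values were seen.

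The chemosensory, epithelial and structural lists lay on the brush side, with a few exceptions. Of 24 tested taste cascade genes 17 (70.8%, against 24.7% of all genes tested) were higher, 3 (12.5%, against 23.5%) lower and 4 not called. Of the 24, 13 passed the filter through the brush libraries only. Among the 8 that would have passed on either group alone, 4 were higher, 1 lower and 3 not called. Gnat3, Gnb3 and Gng13, the 3 subunits of the taste G protein, had 82329, 108031 and 6576 brush counts against 10, 13 and 1. Some genes of the cascade were also present in CD45+ cells: Plcb2, the phospholipase C downstream of the G protein, lay between 127 and 383 CPM against 11.7, 50.5, 61.3 and 56.2 (2.02 ± 0.40, edgeR adjusted p = 0.000869), and Itpr3, the calcium release channel, between 68.8 and 153 against 17.6, 24.6, 45.7 and 7.92 (1.97 ± 0.40, edgeR adjusted p = 0.00111). Itpr2 rose with them (1.64 ± 0.29) and by TPM exceeded Itpr3 in both groups, at 112.1 ± 40.19 against 12.54 ± 7.211 in brush cells and 29.87 ± 17.98 against 2.0 ± 1.832 in CD45+ cells. The general G protein genes did not follow: Gnai2 was not called (-0.63 ± 0.34) and was lower without brush replicate 4 (-0.84, edgeR adjusted p = 0.0204), and Gng2 was lower (-4.53 ± 0.65).

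Of 19 tested tuft cell transcription factors 17 (89.5%, against 24.7% of all genes tested) were higher, and of 46 epithelial junction and identity genes 42 (91.3%) were. In these lists 11 and 22 genes passed the filter through the brush libraries only. Among those that would have passed on either group alone, 7 of 8 and 21 of 23 were higher. The 1 lower junction gene was Cldn1, which encodes a claudin, at 0 to 4.47 CPM against 8.80 to 17.5. In the microvillus list 26 of 35 were higher (74.3%, against 24.7% of all genes tested) and 5 lower (14.3%, against 23.5%). The lower ones numbered 3 without brush replicate 1 or 7 or CD45+ replicate 3 or 4. Among the 5 was Ezr, the actin linker ezrin, at 104 to 244 CPM against 132, 575, 553 and 503 (-1.30 ± 0.37, edgeR adjusted p = 0.00625). Of the 35, 16 passed the filter through the brush libraries only, and of the 18 that would have passed on either group alone 10 were higher and 4 lower. Dclk1, a tuft cell kinase, lay between 1544 and 2084 CPM against 0, 0, 0.769 and 0.256. Hepacam2, a surface protein of tuft cells, was present in both groups, at 297 to 997 CPM against 14.7, 158, 57.1 and 194 (2.93 ± 0.49, edgeR adjusted p = 0.000354).

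The CD45+ libraries also held RNA of some epithelial genes and of Chat. Epcam lay between 25.0 and 35.2 CPM in them, and the summed epithelial list lay between 196.6 and 583 CPM against 15000 to 20360 in brush libraries. Chat lay at 0, 56.5, 40.0 and 19.7 CPM in CD45+ cells and between 146 and 325 in brush cells. Which cells of the CD45+ libraries gave the Chat counts was not tested. The summed markers of other tracheal epithelial cells lay between 616.2 and 2194 CPM in CD45+ and between 688 and 3787 in brush libraries. Of 20 tested, 5 were higher (25%, close to the 24.7% of all genes tested), 1 lower (5%, against 23.5%) and 14 not called. The higher ones numbered 8 without CD45+ replicate 2, 3 without replicate 3 and 2 without replicate 4. Scgb1a1 of club cells lay at 123, 67.9, 48.0 and 23.3 CPM against 9.73 to 185 and was not called (-0.19 ± 0.60). The defining brush genes were near the floor in CD45+ cells (Trpm5 at most 1.10, Avil at most 0.659, Dclk1 at most 0.769 CPM, Pou2f3 and Il25 at 0), and the part of epithelial RNA in the other results was not tested.

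Of 17 cell division genes tested 16 (94.1%, against 23.5% of all genes tested) were lower in brush cells. So were 6 of the 7 that would have passed on either group alone. Mki67, the proliferation marker, lay at 0 to 2.43 CPM against 52.8, 129.7, 32.5 and 77.7. Of 20 genes of the response to tissue dissociation 12 (60%, against 23.5% of all genes tested) were lower and 8 not called. Fos lay at 597 to 1629 CPM against 1543, 2567, 1557 and 4197 (-1.47 ± 0.38, edgeR adjusted p = 0.00337) and Dusp1 at 63.5 to 115 against 258, 2554, 1884 and 4245 (-4.58 ± 0.48). Egr1 of the same response was at a like level (0.21 ± 0.35). The part of the dissociation response in the other results was not tested.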

How the data were processed

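Sorted brush cells (7 libraries) and CD45+ cells (4 libraries) were compared by bulk RNA-seq. The main values were the read counts per gene symbol that the authors deposited unnormalized for all 18 libraries. Per the file headers, each library also has RSEM expected counts and TPM, which the authors deposited separately and which were used as an alternative (expected counts, rounded) and to compare genes (TPM). The submitters' processing notes name mm10 and, without roles or order, featureCounts, DESeq2, RSEM 1.2.21, STAR 2.4.2a and Picard 1.1073. The annotation was not given in the sources used here, nor was the strand setting. How reads shared between gene copies or antisense genes were counted is therefore unknown.

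Counts were filtered by group (filterByExpr), scaled by TMM and tested with edgeR 4.0.16 (quasi-likelihood, group only, 11 libraries), with Benjamini-Hochberg adjustment over the 12275 genes tested and a threshold of 0.05. CPM used the TMM library sizes. Standard errors come from the same fit. A group at 0 was given a floor of 3 counts over the group, or 0.101 CPM in brush and 0.173 CPM in CD45+ cells, which covers counting error only. The groups and gene lists were chosen with earlier results of these data known. The text names the markers Trpm5, Alox5 and Ptprc, the 12 genes per direction that changed most at 50 CPM or more without overlap, like-level genes, members that lead or define each list, and paralog pairs, but some of these genes are not reported here. Ribosomal RNA genes stayed in the main calculation. Chi-square comparisons per degree of freedom between libraries of a group were 10.2 or more, so no library was treated as a copy of another. Promoter sequences are RefSeq's, on GRCm38.p6. The test was also run on simulated data with the same spread setting for every gene and library. These data are less even, so that run does not show the error rate here. Alternatives were DESeq2 1.42.0, limma 3.58.1 (voom), other filters and scalings, expected counts, all 18 libraries, leaving out libraries, and a replicate block. The 7 EpCAM+ libraries entered only the alternative with all 18.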

Additional observations from a re-analysis of the deposited data

Results flagged for a closer look

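Single libraries far from the rest of their group were looked for in 285 groups of values of the named genes, by the gap to the nearest library over the group's range, and 53 were found. The cutoff would flag about 1 in 20 groups by chance if values were normally distributed, which CPM need not be. A group with counts in only 1 library is always flagged, so the 53 cannot be set against that rate. Brush replicate 4, the shallowest brush library, held 19 of them. It was the highest brush library, with the nearest other library in brackets, for Alox5ap at 2193 CPM (1255), Ltc4s at 1201 (444), Fyb at 1113 (627), Gnat3 at 6092 (3836), Gng13 at 1176 (396), Ovol3 at 487 (235), Ly6g6f at 306 (151), Fos at 1629 (982), B2m at 770.2 (432), Gnai2 at 254 (156), Rps4l at 193 (103), Scgb1a1 at 185 (68.1), Cd37 at 15.4 (3.83), Il2rg at 1.93 (0.213) and Rgs1 at 1.93 (0.543). It was the lowest for Ptpn6 at 716 (1219), Hepacam2 at 297 (749), Cd300lf at 173 (279) and Ms4a15 at 125 (185).

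CD45+ replicate 1, the shallowest library, was the highest of its group for Cd52 at 2705 CPM (375), Ccl4 at 2479 (426), Psmb8 at 866 (458) and Ptpn18 at 478 (115), and the lowest for H2-K1 at 1156 (2788), Coro1a at 531 (1541), Arhgdia at 96.8 (452), Ezr at 132 (503), Btk at 29.3 (111) and Lta4h at 20.5 (132). Ighg2b stood at 1459 CPM (55.0) and Ptger1 at 22.1 (14.7) in CD45+ replicate 3. Single CD45+ libraries were also flagged for 5 taste and brush genes: Gnb3 at 3.07 CPM in replicate 4 (0.251), Gng13 at 0.251 in replicate 2, Sh2d7 at 0.256 in replicate 4, and Eppk1 and Tas2r108 at 0.11 in replicate 3. The other CD45+ libraries had 0 counts of these last 4, so their flags follow from the rule.

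The remaining ones concern brush libraries. H2-Ab1 stood at 44.2 CPM in replicate 7 (16.8), and Plcb2 at 383 (234), Tgfb3 at 45.5 (25.7), Cd52 at 0.237 (0) and Ccl4 at 0.118 (0) in the same library. Replicate 5 was highest for Tnfsf13 at 34.9 (20.4), Coro2a at 4.37 (1.08) and for 3 leukocyte genes, Coro1a, Fcer1g and Pik3cd, at 2.18 CPM each. Tlr2 stood at 6.70 in replicate 1 (2.70), Alox15 at 2.43 (0.118) and Ccl6 at 0.202 (0) in replicate 2, Ptger4 at 1.35 (0.118) and Ptpn22 at 0.541 (0.202) in replicate 3, where Cx3cl1 was lowest at 4.05 (11.5), and Retnla at 0.426 (0) in replicate 6.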

How the results depend on the processing

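Of 153 named genes, none of those called changed direction under any setting, 23 lost or gained a call under at least 1, and 12 did so when 1 library was left out. Without CD45+ replicate 1 the log2 fold change moved from -13.26 to -11.79 for Cd52, from -13.68 to -12.1 for Ccl4 and from -12.11 to -11.08 for Cd3g. Without brush replicate 4 that of Gng13 moved from 11.99 to 11.39. Ribosomal RNA genes were the largest scaling choice: without them the median log2 fold change shifted by -0.159. Leaving out 1 library gave 2756 to 3259 genes higher, 2667 to 3314 lower and 915 to 1773 at a like level; 39 to 43 higher, 303 to 328 lower and 8 to 14 at a like level in the leukocyte and eicosanoid lists; 99 to 103, 6 to 10 and 2 to 5 in the brush and epithelial lists; and 1 to 2 higher and 74 to 80 lower among single-class markers. The lowest like-level count, 915, came without CD45+ replicate 2. The count of like-level genes was 2292 without brush replicate 4 and CD45+ replicate 1, 462 at a minimum of 50 CPM and 24 within 1.5-fold. The labels do not say whether replicate numbers pair the libraries. The deviations of same-numbered brush and CD45+ libraries correlated at -0.146, 0.128, 0.0907 and -0.236, and no CD45+ library correlated best with its own number. CD45+ replicate 1 correlated best with brush replicate 4, the shallowest library of the other group. With depth mixed in and so few libraries, these values cannot decide whether libraries were paired. With a replicate block on the 8 libraries numbered 1 to 4, 1938 genes were higher, 1782 lower and 77 at a like level, and without the block on the same 8 libraries, 582 were at a like level. Like-level genes of the leukocyte and eicosanoid lists numbered 0 and 3 in those 2 fits, and those of the brush and epithelial lists 1 in each, 5 by limma and 5 without the 2 shallow libraries. Lower genes of the brush and epithelial lists numbered 4 with the block and 3 at a minimum of 10 CPM. Single-class markers had 2 higher genes by DESeq2 and with no filter. The 8 libraries hold fewer samples; the other causes were not tested. Depth limits the genes at 0: a brush group at 0 counts allows 0.101 CPM.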

Other observations

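Gene families that no comparison in the report was built on were also counted, by symbol patterns chosen after values had been seen, so they are descriptions. The shares to set beside them are those of all genes tested, 24.7% higher and 23.5% lower. Regulators of G protein signalling split between the populations, with 9 of 15 tested higher in brush cells and 5 lower. Rgs13, known from B cells and mast cells, lay between 797 and 1667 CPM in brush cells and at 0, 4.27, 4.61 and 0.256 CPM in CD45+ cells, while Rgs1, a lymphocyte gene, had 8 brush counts against 7412. Of 23 tetraspanins 9 were higher and 8 lower. Tspan1 and Tspan8 of epithelia lay between 709 and 1384 and between 238 and 789 CPM in brush cells against at most 7.04 and 4.06, and the leukocyte genes Cd37 and Cd53 lay at most at 15.4 and 1.62 CPM in brush cells against at least 211 and 276. Cd9, a broadly expressed member, was not called (0.23 ± 0.44). In the MS4A family Ms4a15 was higher and the other 10 tested were lower. Potassium channel genes were higher in 16 of 24 tested and lower in 5. Lrmp, the inositol trisphosphate receptor partner that is shared by tuft cells and lymphocytes, lay between 4051 and 7885 CPM in brush cells and at 14.7, 118, 149 and 142 CPM in CD45+ cells.

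Housekeeping families differed from each other. Of 82 genes of cytosolic ribosomal proteins 74 were lower in brush cells and 1, Rps4l, was higher, with a median log2 fold change of -1.83. The count of lower ones was 42 without CD45+ replicate 1, 28 in the 8 libraries numbered 1 to 4 and 7 in the same 8 with a replicate block. Of 75 nuclear oxidative phosphorylation genes 2 were higher and 73 were not called (edgeR's quasi-likelihood test with Benjamini-Hochberg adjustment), with a median of 0.0432. The counts were 12 higher without CD45+ replicate 1, 7 lower without brush replicate 4, and 1 higher without most other single libraries. Of 37 proteasome genes 20 were at a like level and 4 lower, or 9 lower without brush replicate 4.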
